A study of Homo sapiens with 6 samples.

Results

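The genes described here are the pappalysins, the stanniocalcins and the insulin-like growth factor (IGF) axis in MDA-MB-231 cells, a human triple-negative breast cancer line. They are 10 genes of the 15917 that the deposited table lists: the pappalysins *PAPPA2* and *PAPPA*, the stanniocalcins *STC1* and *STC2*, the IGF-binding proteins *IGFBP3*, *IGFBP4*, *IGFBP6* and *IGFBP7*, and the receptors *IGF1R* and *IGF2R*. All 10 were found in the table by symbol. The set was chosen by the size of the change of *PAPPA2* in the authors' own comparison of *RBMS3* knockdown with control cells. Since it was drawn up from genes of this table, that all of its members are listed is no result.

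Total RNA was sequenced in 6 libraries. Of these, 2 came from cells with a control hairpin (shCTRL, genotype label WT), 2 from cells with the hairpin shRBMS3-B3 (RBMS3 KD1) and 2 from cells with shRBMS3-C3 (RBMS3 KD2). The study silenced *RBMS3*, which encodes an RNA-binding protein, to examine which transcripts respond. Its hairpins were delivered by lentivirus into luciferase-labeled cells selected with puromycin, so every group carries an integrated vector, and all libraries stem from 1 cell line.

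The table holds 1 row per gene with the results of the authors' knockdown comparison and a mean normalized count over libraries. The results of that comparison were not used here, and no value of a single library was analysed. Whether any of the 10 genes differed between knockdown and control cells was therefore not tested. What follows is the mean normalized count, a single level per gene in which the authors' libraries are pooled, without a replicate error and with unknown depth. Which libraries entered it is not settled: the labels give 4 knockdown and 2 control libraries, whereas a legend in the supplement describes the comparison with 2 replicates of each. A gene that differs between the groups has a pooled level somewhere between its levels in them, and neither can be read from it.

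IGFs act on cells through the receptor tyrosine kinase IGF1R, whereas IGF2R binds IGF2 and carries it to lysosomes. In the extracellular space most IGF is held by IGF-binding proteins. The pappalysins are secreted metalloproteases that cut some of these binding proteins and so free the growth factor: PAPP-A, the product of *PAPPA*, cuts IGFBP4 in particular, and PAPP-A2 cuts IGFBP3 and IGFBP5. Stanniocalcins are secreted glycoproteins that bind the pappalysins and inhibit them.

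The pooled levels of the 10 genes lay far apart. *IGFBP4*, the main binding protein substrate of PAPP-A, had the highest mean normalized count, 28698, and *STC2* the lowest, 30.5, a 939.6-fold span. The median of all 15917 listed genes was 364, with a range from 26.7 to 859682. Of the 10 genes, 8 lay above that median and 2, *PAPPA2* and *STC2*, below it. *IGFBP4* alone made up 64.6% of the summed mean normalized count of the 10 genes.

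**Figure D1:**
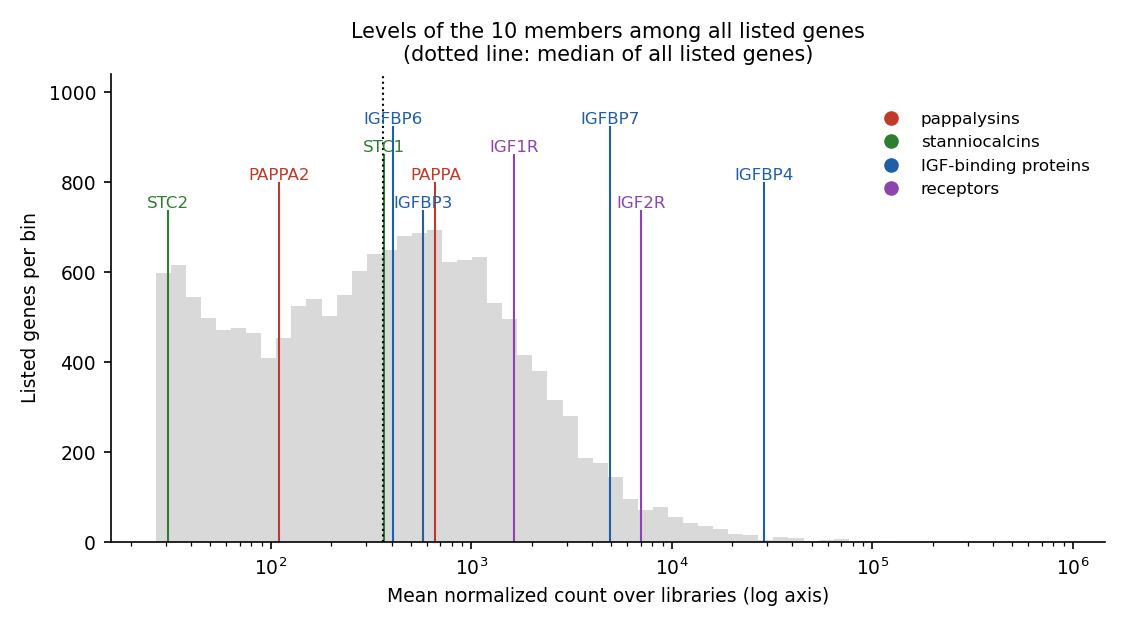
Mean normalized count over libraries (x axis, log scale) against the number of listed genes per bin (y axis). Grey bars are all 15917 listed genes, each coloured line is 1 of the 10 genes, and the dotted line is the median of all listed genes, 364. *STC2* sits at the low edge at 30.5 and *IGFBP4* far to the right at 28698.

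Mean normalized counts are not divided by gene length, and the representative transcripts of these genes run from 947 bases for *IGFBP6* to 14061 bases for *IGF2R*. To compare levels between genes, each was divided by the length in kilobases of its representative transcript. On this scale the level of *IGFBP4* was 13015 per kilobase, followed by *IGFBP7* at 3463, *IGF2R* at 499.5, *IGFBP6* at 432 and *IGFBP3* at 219.5. *IGF1R* came next at 134, close to the median of all listed genes with a length, 136.5. The lower end held *STC1* at 94.8, *PAPPA* at 60.3, *PAPPA2* at 11.4 and *STC2* at 7.18 per kilobase. Within the set, all 4 binding proteins thus lay above the median per kilobase, and all 4 genes of the proteases and their inhibitors below it. This split depends on the division by length. Undivided, *PAPPA* at 662 and *STC1* at 367 also lay above the median of 364. Nor does the split per kilobase extend to every listed binding protein. Outside the set, *IGFBP1* lay above the median at 323.5 per kilobase and *IGFBPL1* below it at 86.4. With 1 pooled value per gene, no spread is known, so whether neighbours in this order differ beyond their error cannot be said. The closest neighbours were *IGF2R* and *IGFBP6*, at a ratio of 1.16 per kilobase, and *IGF1R* and *STC1*, whose ratio of *STC1* to *IGF1R* was 0.71.

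**Figure D2:**
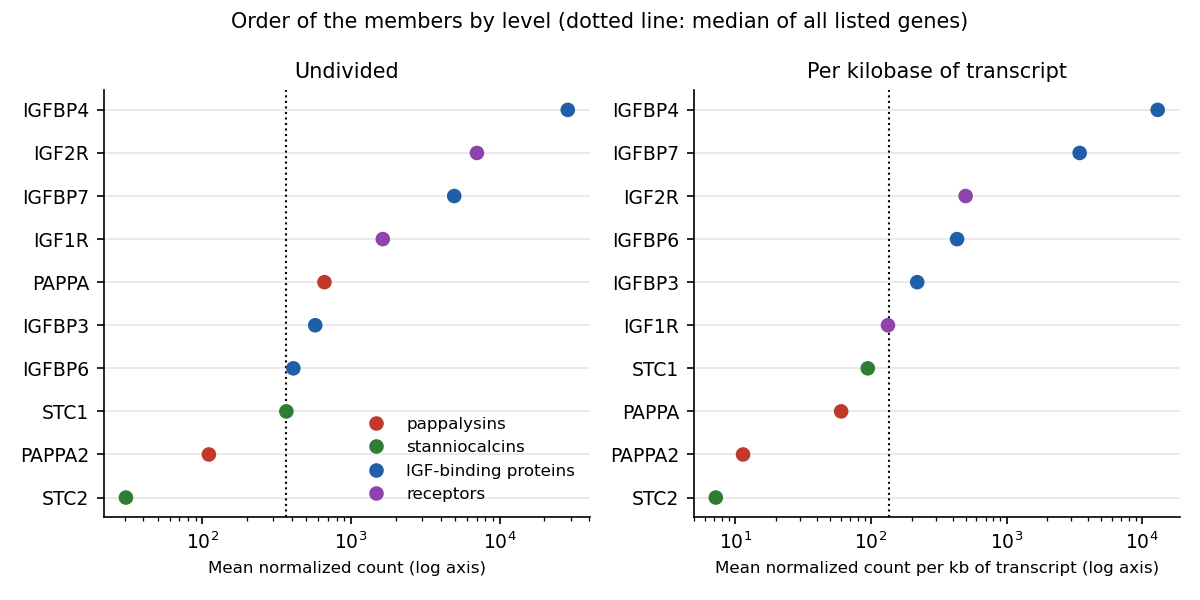
The 10 genes in order of mean normalized count (left, log axis) and of mean normalized count per kilobase of transcript (right, log axis), with 1 point per gene coloured by role and no error bars, since each level is 1 pooled value. *IGFBP4* stands at the top and *STC2* at the bottom of both orders, and *PAPPA* falls from rank 5 to rank 8 once length is taken into account.

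*PAPPA2* (ENSG00000116183), which gave rise to the selection, maps to chromosome 1, plus strand, positions 176463171 to 176845601 on GRCh38. Its representative transcript has 23 exons and a coding sequence of 1791 codons. The mean normalized count was 110.4, at percentile 26.1 of the listed genes and 15.5 of the protein-coding ones. Per kilobase of its 9683-base transcript, only 4.86% of genes had a lower level. The *PAPPA2* mRNA was thus a scarce one in these cells at this pooled level. The paralog *PAPPA* (ENSG00000182752) maps to chromosome 9, plus strand, positions 116153791 to 116402321, with 22 exons and 1627 codons. Its mean normalized count of 662 was 5.99-fold that of *PAPPA2*, and 5.29-fold per kilobase. *PAPPA* stood at percentile 64.8 undivided and at percentile 29.6 per kilobase.

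Both pappalysin genes overlap genes of the opposite strand. *PAPPA-AS1* shares exon bases with *PAPPA* and is not listed. *PAPPA-AS2*, which overlaps the span of *PAPPA* without sharing exon bases, is listed as *RP11-45A16.3* with a mean normalized count of 34.6. The 2 annotated genes that overlap the span of *PAPPA2*, a pseudogene and a long noncoding RNA gene, share no exon bases with it and are not listed. The library kit keeps the strand, but whether the counting used it is not given in the sources used here.

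The stanniocalcins lay further from each other than the pappalysins. *STC1* (ENSG00000159167) maps to chromosome 8, minus strand, positions 23841929 to 23854806 and codes for 247 residues in 4 exons. Its mean normalized count of 367 stood at percentile 50.2, next to the median of all genes, and at percentile 40.0 of protein-coding genes. *STC2* (ENSG00000113739) maps to chromosome 5, minus strand, positions 173314723 to 173328447, also with 4 exons, and codes for 302 residues. Its mean normalized count of 30.5 stood at percentile 2.85, or 1.47 among protein-coding genes, close to the lowest level that the table lists. The level of *STC1* was 12.0-fold that of *STC2* undivided and 13.2-fold per kilobase. Which of the inhibitor *STC1* and the protease *PAPPA* stood higher depends on length: *STC1* was at 1.57-fold the level of *PAPPA* per kilobase, and *PAPPA* at 1.81-fold that of *STC1* undivided. *STC1* exceeded *PAPPA2* 8.31-fold per kilobase and 3.32-fold undivided. *PAPPA2* in turn stood at 1.59-fold the level of *STC2* per kilobase and 3.62-fold undivided.

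Of the IGF-binding proteins, *IGFBP4* and *IGFBP7* were abundant. *IGFBP4* (ENSG00000141753), at chromosome 17, plus strand, positions 40443450 to 40457725, stood at percentile 99.6 of the mean normalized counts and at percentile 99.0 per kilobase. Its mRNA level per kilobase was 215.8-fold that of *PAPPA* and 1141-fold that of *PAPPA2*, and undivided it was 43.4-fold and 259.9-fold. *IGFBP7* (ENSG00000163453), a related secreted protein that binds IGFs with low affinity, maps to chromosome 4, minus strand, positions 57030773 to 57110385. It had a mean normalized count of 4941, at percentile 96.1, and *IGFBP4* exceeded it 3.76-fold per kilobase. The *IGFBP7* gene shares exon bases with the opposite-strand gene *POLR2B*, an RNA polymerase II subunit, whose own mean normalized count was 2735. How many reads the 2 genes share was not tested.

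The other binding proteins lay nearer the middle. *IGFBP3* (ENSG00000146674), the main carrier of IGFs in blood and a substrate of PAPP-A2, maps to chromosome 7, minus strand, positions 45912245 to 45921874. It had a mean normalized count of 574, at percentile 61.0. *IGFBP6* (ENSG00000167779), which prefers IGF2, maps to chromosome 12, plus strand, positions 53097436 to 53102345 and had 409, at percentile 52.7, or 42.8 among protein-coding genes. Their order depends on length. Undivided, the level of *IGFBP3* was 1.40-fold that of *IGFBP6*, and per kilobase that of *IGFBP6* was 1.97-fold that of *IGFBP3*. With the longest annotated transcript of each gene in place of the representative one, the latter ratio was 1.59.

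Both receptors were expressed. *IGF1R* (ENSG00000140443) maps to chromosome 15, plus strand, positions 98648539 to 98964530 and had a mean normalized count of 1634, at percentile 84.2. *IGF2R* (ENSG00000197081) maps to chromosome 6, plus strand, positions 159969082 to 160113507, with 48 exons, and had 7024, at percentile 97.5. The level of the clearance receptor *IGF2R* was 4.30-fold that of the signalling receptor *IGF1R* undivided and 3.74-fold per kilobase. Per kilobase *IGF1R* stood at percentile 49.3, with a transcript of 12235 bases, and *IGF2R* at percentile 80.0. A pseudogene on the same strand, *CHP1P2*, shares exon bases with *IGF2R*. It is listed as *RP11-288H12.3* with a mean normalized count of 65.1, a small share of the level of *IGF2R*.

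The paper links RBMS3 to an AUA element in the 3′ untranslated region (3′UTR), so the 3′UTRs of the 10 genes were searched for it. The motif comprises 12 words of 7 letters, written with T for U, such as TTATATA. The first letter is any but C, the second and the sixth are A or T, the middle reads ATA and the last is A. Matches on the transcript strand were counted with overlaps, and 3 of the words contain the polyadenylation signal AATAAA. Of the 12350 listed genes with a 3′UTR of at least 7 bases, 84.8% had at least 1 match, with a median of 3. A match is a description of the sequence and does not show that RBMS3 binds there.

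Of the 10 genes, 8 had at least 1 match, with 80 matches in all. *PAPPA* had 25 matches, 14 of them overlapping another match, in a 3′UTR of 5705 bases. Among the 856 listed genes whose 3′UTR is within 20% of that length, the median was 13 matches and 13.6% had more than *PAPPA*. *PAPPA2* had 9 matches in 3147 bases, and 36.4% of the 1655 genes with a 3′UTR of like length had more. *IGFBP7* had 4 matches in 544 bases, or 7.35 per kilobase, and 8.60% of the 1070 genes of like length had more. Its 3′UTR was also rich in A and U, at 68.2% against a median of 57.9% over all listed 3′UTRs. *IGFBP3* had 5 matches in 1605 bases, and 31.4% of the 1709 genes of like length had more. All 4 genes had more matches than the median of their length class, *PAPPA2* and *IGFBP3* by less than *PAPPA* and *IGFBP7* in rank.

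The receptors had long 3′UTRs and fewer matches than the median of their length classes. *IGF1R* had 11 in 7088 bases, and 70.3% of the 539 genes of like length had more and 26.3% fewer. *IGF2R* had 12 in 6420 bases, and 60.8% of the 663 genes of like length had more and 34.5% fewer. *STC1* and *STC2* had 7 each, the median of their length classes. The abundant *IGFBP4* had no match in 1142 bases, whereas 87.9% of the 1460 genes of like length had at least 1. *IGFBP6* had none in its short 3′UTR of 173 bases, where 62.5% of the 459 genes of like length had a match. These 2 genes also had the lowest A+U content of the set, at 46.5% and 41.0%.

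**Figure D3:**
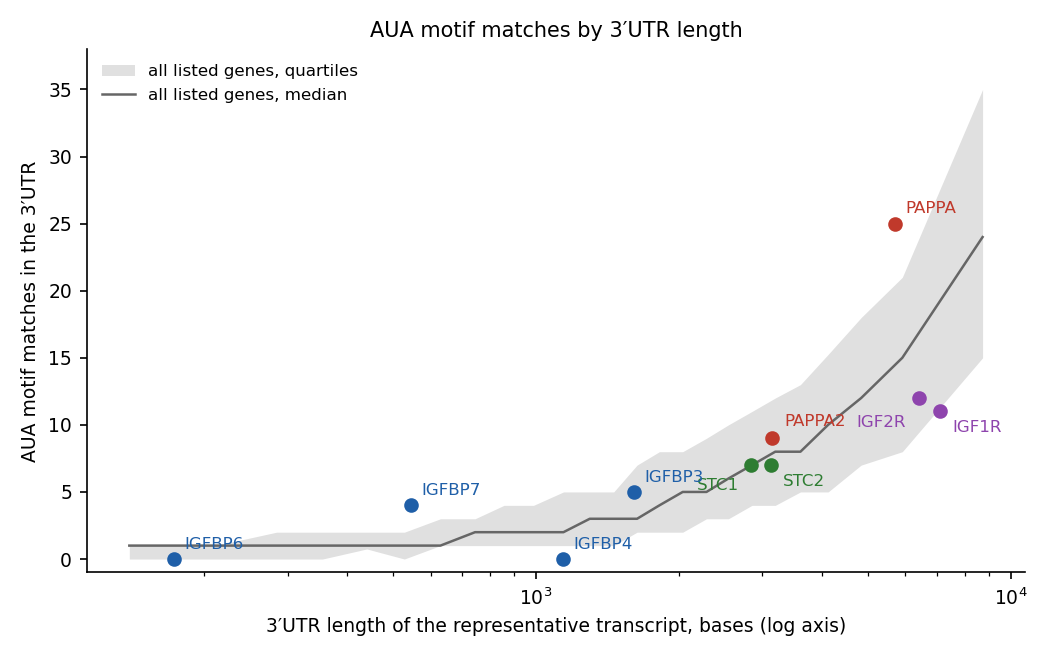
Number of AUA motif matches in the 3′UTR of the representative transcript (y axis) against its length in bases (x axis, log scale). Points are the 10 genes coloured by role (red for pappalysins, green for stanniocalcins, blue for binding proteins, purple for receptors), and the grey line and band are the median and quartiles of listed genes with a 3′UTR of at least 100 bases, in 25 bins of length. *PAPPA* with 25 matches lies above the band, *IGFBP4* with 0 below it.

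To show what these matches look like, a site each of *PAPPA2*, *PAPPA*, *IGFBP7* and *IGFBP3* is printed with 11 bases on either side, in lower case with the match in capitals. Sequences are from GENCODE release 44 transcripts on GRCh38, 5′ to 3′ on the strand of the gene.
PAPPA2, chr1:176843000-176843028, plus strand: ataaatatattATATATAttatatttttt
PAPPA, chr9:116402287-116402315, plus strand: atattatgaaaATATATAatagcttgtac
IGFBP7, chr4:57030784-57030812, minus strand: ctgtagataatGAATAAAtgagtggagct
IGFBP3, chr7:45912253-45912281, minus strand: ttattttattaTAATAAAatcctgaaagg
The *PAPPA2* site, 557 bases after the stop codon, belongs to a run of A and T that holds 5 of the 9 matches. Each of these 5 overlaps at least 1 other, but not all of them overlap one another. The *PAPPA* site ends 17 bases before the transcript end and holds no AATAAA. The *IGFBP7* and *IGFBP3* sites end 22 and 19 bases before it and contain that signal.

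A last match within 30 bases of the transcript end was found in 7 of the 10 genes, next to 55.4% of all listed 3′UTRs. Of the 8 genes with a match, *PAPPA2* was the one without it there. In 5 of the 7, namely *STC1*, *STC2*, *IGFBP3*, *IGFBP7* and *IGF1R*, the word there contains AATAAA. Among listed 3′UTRs with at least 1 match, 65.3% had their last one in this window. In *STC2* all 7 matches contain the polyadenylation signal. Over the 10 genes 35.0% of matches contain it, next to 36.0% of the matches of all listed 3′UTRs. In *PAPPA2* it is 1 of 9 and in *PAPPA* 7 of 25.

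The rest of the axis was described from a list of 49 genes, of which 31 are listed. None of the ligand genes *IGF1*, *IGF2* and *INS* is listed, nor is *PRG2*, whose product inhibits PAPP-A, nor *CASR*, the calcium-sensing receptor. A gene that is not listed may be expressed below the lowest level of the table, 26.7, or may have been left out for another reason. Of the other binding proteins, *IGFBP1* had a mean normalized count of 489.8 and *IGFBPL1* of 308, while *IGFBP2*, *IGFBP5* and *IGFALS* are not listed. *IGFBP5* is the substrate that both pappalysins share. The insulin receptor gene *INSR* had 837, at percentile 70.2, and per kilobase 88.5 against 134 for *IGF1R*.

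Downstream of the receptors, 21 of 23 adaptor and signalling genes are listed and 18 lie above the median of all genes. The receptor substrates *IRS1* and *IRS2* had mean normalized counts of 3246 and 1016. The kinase genes *AKT1* and *AKT2* had 3654 and 2739.8. The 2 genes of this group that are not listed are *IRS4* and *GRB14*. Of 11 other proteases known to cut IGF-binding proteins, 5 are listed. *CTSD*, the lysosomal protease cathepsin D, had 20849.8, *PLAU*, urokinase, 6659.5, *ADAM9* 4680.1, *HTRA1* 733 and *ADAM12* 112. Per kilobase, *CTSD* at 10146, *PLAU* at 2842, *ADAM9* at 1138 and *HTRA1* at 351 stood above both pappalysins, and *ADAM12* at 14.1 stood next to *PAPPA2* at 11.4. The matrix metalloproteases of the list, *MMP1*, *MMP2*, *MMP7* and *MMP9*, are not listed.

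**Figure D4:**
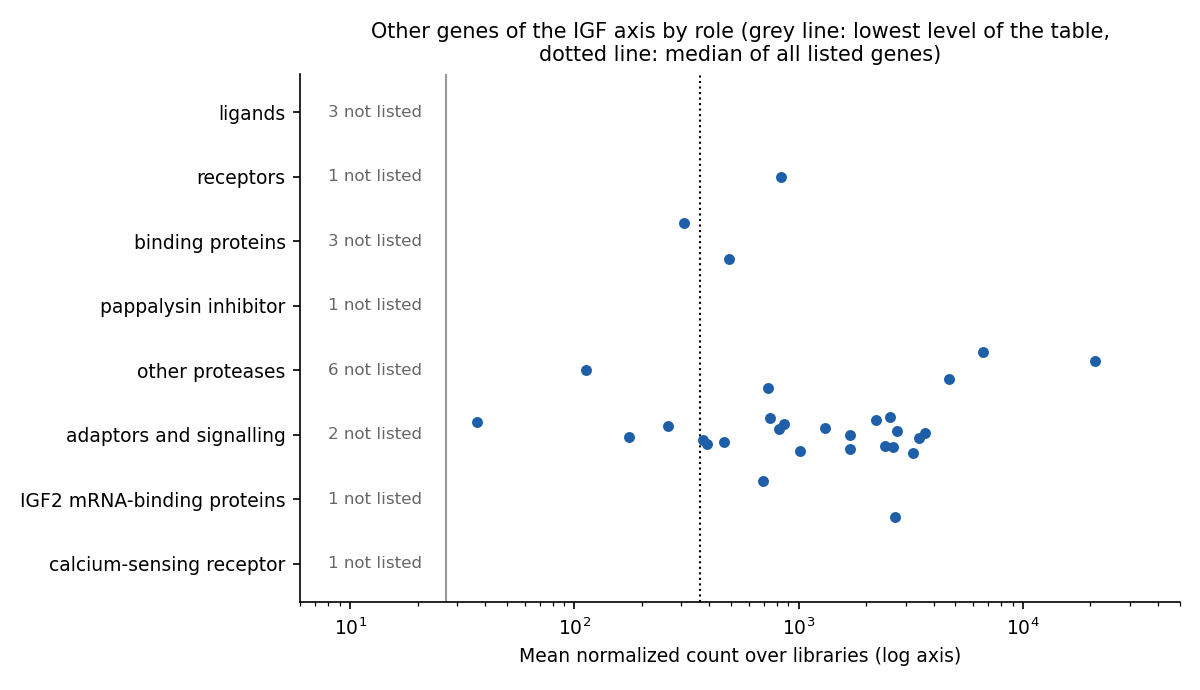
Mean normalized count over libraries (x axis, log scale) of the other 49 genes of the IGF axis by role (y axis), 1 point per listed gene, with the number of genes that are not listed given at the left of each role. The grey line is the lowest level in the table, 26.7, and the dotted line the median of all listed genes, 364. The ligand row holds no point, and 18 of the 21 listed adaptor and signalling genes lie to the right of the median.

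The cell line was checked against its markers. Of 7 genes expected in this mesenchymal, claudin-low line, 6 are listed, from *ZEB1* at 1034 to *VIM* at 69335, and *SPARC* is not. Of 6 genes expected to be low or absent, *ESR1*, *PGR* and *KRT5* are not listed, and *CDH1* stood at 31.6 and *EPCAM* at 107. The remaining gene of these, *ERBB2*, went against that expectation and stood at 1557, at percentile 83.4. Of 8 markers of blood, vessel and stromal cells, *PTPRC*, *CD3E* and *VWF* are not listed, and 4 stood between 69.0 and 192. The remaining marker, *CD68*, went against these and stood at 1637, at percentile 84.3.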

How the data were processed

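Libraries came from a strand-keeping kit for little input RNA and were read from both ends. Submitters' processing notes name Salmon, DESeq2 and hg38 without versions. Aligner settings, annotation and filters on low genes are not given in the sources used here. The deposited signal, made by the authors, is the mean of normalized counts over libraries, 1 value per gene. The other 5 numeric columns hold the authors' knockdown comparison (fold change, its error, test statistic, p-value and adjusted p-value) and were not used. The planned count test between groups needs values per library and was not run.

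Ensembl identifiers were looked up in GENCODE release 44 (GRCh38), which holds 15829 of 15917. The representative transcript was MANE Select, otherwise Ensembl canonical. Percentile is the share of listed genes with a lower value. Functions were tested on simulated data, and printed sites were checked against the genome. The 10 genes and all lists were chosen with earlier results of these data known. Named genes are the 10 genes, the RBMS family, the IGF axis list and cell markers; some items of the list are counted but not reported here. Analyses used Python 3.11.15 (pandas 2.3.3, numpy 2.4.6, matplotlib 3.10.9, SciPy 1.17.1).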

Additional observations from a re-analysis of the deposited data

How the results depend on the processing

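The number of the 10 genes above the median, 8 among all listed genes, was 6 among protein-coding genes, where *STC1* and *IGFBP6* fell below it. It was 4 when only genes above the median of all genes were ranked, where fewer genes enter and the bar is higher by construction. Per kilobase of transcript, 5 of the 10 genes lay above the median of all listed genes with a length. The order per kilobase was the same for all 45 pairs of genes with the longest transcript in place of the representative one, and for 38 of 45 pairs when levels were not divided by length. Motif matches numbered 80 in representative 3′UTRs and 84 in the longest ones. The list count of 31 genes was the same with current symbols only. Not run, for want of data on single libraries, were another normalization or test, a filter on low counts, each replicate left out, and each hairpin alone. No paired analysis was possible because each gene has 1 pooled value. Depth is unknown, so the precision of low levels such as that of *STC2* is unknown too.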

Other observations

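The gene that the hairpins target and its paralogs were also read at their pooled level. *RBMS3* had a mean normalized count of 272, at percentile 43.3, *RBMS1* of 498 and *RBMS2* of 3768. Per kilobase of transcript *RBMS2* stood at 444, *RBMS1* at 116 and *RBMS3* at 32.1, the latter between *PAPPA2* at 11.4 and *PAPPA* at 60.3. This mean is not the level of *RBMS3* in control cells, since knockdown libraries are pooled into it under either account of the libraries.

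Of the 3 IGF2 mRNA-binding proteins, which bind *IGF2* and other transcripts, *IGF2BP2* had a mean normalized count of 2692 and *IGF2BP3* of 695, and *IGF2BP1* is not listed. The FOXO transcription factors, which AKT kinases hold out of the nucleus, had mean normalized counts of 863 for *FOXO3*, 261 for *FOXO1* and 36.7 for *FOXO4*. The kinase *MTOR* had 2215, and *RPTOR* and *RICTOR*, subunits of its complexes, had 2553 and 748.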
